A study of Homo sapiens with 8 samples.

Results

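The genes described here carry out fatty acid oxidation or are textbook targets of the peroxisome proliferator-activated receptors (PPARs). They were listed by name, and each was read from the probe set that the platform annotation pairs with that gene alone. Of 33 named genes 31 were measured, among 18417 genes in all: 18 of 18 mitochondrial enzymes, 4 of 5 peroxisomal enzymes, 4 of 5 long-chain acyl-CoA synthetases, and 5 of 5 PPAR targets and lipid-binding proteins. SCP2 and ACSL3 were not analysed here, since no probe set paired with either alone. The RNA came from U373, an established human astrocytoma line, and every group spent 24 h in medium with hormone-free serum before 12 h of treatment. The 4 groups, with 2 arrays each, received vehicle, 10 nM progesterone, 1 µM of the antiprogestin RU-486 (mifepristone), or both steroids, called the combination below. RU-486 blocks the progesterone and glucocorticoid receptors. Sample titles give RU-486, while their descriptions give another compound number. The labels call the replicates biological without saying that they came from separate cultures, so p-values measure the spread between these arrays, and the line is a single cell source.

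Long-chain fatty acids are first joined to coenzyme A by acyl-CoA synthetases and enter mitochondria through the carnitine shuttle. There a cycle of dehydrogenation, hydration, a further dehydrogenation and thiolysis shortens the chain, and electrons pass through the electron transfer flavoprotein to the respiratory chain. Very long and branched chains are shortened in peroxisomes by a parallel set of enzymes. PPARs are nuclear receptors that bind fatty acids and, paired with a retinoid X receptor, induce many of these genes. In the brain, astrocytes are the main site of fatty acid oxidation.

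Values are log2 levels. On this scale a difference of 1 is a doubling, and levels of different probe sets cannot be ranked against each other. As a floor, 341 olfactory receptor genes, mostly silent in brain-derived cells, had a median of 4.64, and 95% of them lay below 6.22. The measured members lay above 6.22 on all 8 arrays in 25 cases and below it on all 8 in 4 cases, namely ACADL, PDK4, PLIN2 and FABP3. FABP4 exceeded it on 7 arrays and ACSL6 on 1. Of 13 astrocyte and glioma markers 10 lay above the floor, and AQP4, ALDH1L1 and SLC1A2 did not. Markers of other cells lay above the floor too. They were 6 of 9 adipocyte genes (LEP, PLIN1, CIDEC, LIPE, TRARG1 and GPD1) and 2 of 10 macrophage and microglia genes (CD68 and TYROBP). Others were 5 of 9 hepatocyte, 3 of 9 muscle, 2 of 9 endothelial and 6 of 8 neuron genes. Genes that mark unrelated cell types could thus lie above the floor. The defining adipocyte gene ADIPOQ, at 5.71, and the leukocyte gene PTPRC, at 3.44, lay below it. The mean of 9 adipocyte markers ran from 6.18 to 6.57 over the arrays, and that of 10 macrophage and microglia markers from 5.91 to 6.26.

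Over all genes the progesterone pair stood apart from the other pairs. Its replicates differed by over 0.5 log2 units in 11.8% of all genes, compared with 2.44% in the vehicle pair, 0.690% in the RU-486 pair and 0.994% in the combination pair. Among the members the share was 12.9% in both the progesterone and the vehicle pair, and 0% in the RU-486 and combination pairs. These members were ACADSB, ETFDH, ACSL4 and ANGPTL4 in the progesterone pair, and ACSL4, PDK4, FABP3 and FABP4 in the vehicle pair. Progesterone replicate 1 held the lowest ACADSB (8.23, against 8.97 in replicate 2) and the lowest ETFDH (7.99, against 8.68). Results that rest on progesterone arrays are given below with and without the array concerned where a call changed.

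4 promoters of members whose arrays did not overlap between the sides of the RU-486 comparison below are printed, to show what lies in front of genes with a shared direction. They come from RefSeq (GRCh38.p14), each with 250 bases before and 50 after the start site, on the gene's own strand, and 28 of the 33 named genes matched the table, with 46 windows. Capitals mark matches on either strand to the GC box of Sp1-type factors (GGGCGG) or the cAMP response element (TGACGTCA). HADHB encodes a subunit of the mitochondrial trifunctional protein, ACAA2 a mitochondrial thiolase, ACSL1 an acyl-CoA synthetase and ACOX3 a peroxisomal oxidase. The positions are chr2:26244689-26244988 on the plus strand for HADHB, chr18:49813484-49813783 on the minus strand for ACAA2, chr4:184825919-184826218 on the minus strand for ACSL1 and chr4:8440674-8440973 on the minus strand for ACOX3. ACSL1 and ACOX3 have further start sites.
HADHB: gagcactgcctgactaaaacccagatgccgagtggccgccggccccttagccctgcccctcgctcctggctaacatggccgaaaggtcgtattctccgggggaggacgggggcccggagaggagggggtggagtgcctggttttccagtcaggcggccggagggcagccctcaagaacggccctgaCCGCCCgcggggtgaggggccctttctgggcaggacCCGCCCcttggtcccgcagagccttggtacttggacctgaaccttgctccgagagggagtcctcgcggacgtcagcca
ACAA2: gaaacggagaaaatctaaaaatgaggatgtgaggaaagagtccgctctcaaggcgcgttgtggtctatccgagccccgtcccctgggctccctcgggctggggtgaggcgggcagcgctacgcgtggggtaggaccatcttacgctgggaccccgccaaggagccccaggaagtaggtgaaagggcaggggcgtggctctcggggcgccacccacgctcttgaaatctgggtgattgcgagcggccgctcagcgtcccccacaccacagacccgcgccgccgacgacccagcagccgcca
ACSL1: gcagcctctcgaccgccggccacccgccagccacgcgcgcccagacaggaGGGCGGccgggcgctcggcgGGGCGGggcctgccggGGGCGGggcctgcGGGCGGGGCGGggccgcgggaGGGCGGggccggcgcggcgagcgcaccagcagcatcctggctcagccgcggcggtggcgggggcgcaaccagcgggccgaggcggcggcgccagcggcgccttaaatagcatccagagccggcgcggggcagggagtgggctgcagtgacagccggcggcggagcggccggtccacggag
ACOX3: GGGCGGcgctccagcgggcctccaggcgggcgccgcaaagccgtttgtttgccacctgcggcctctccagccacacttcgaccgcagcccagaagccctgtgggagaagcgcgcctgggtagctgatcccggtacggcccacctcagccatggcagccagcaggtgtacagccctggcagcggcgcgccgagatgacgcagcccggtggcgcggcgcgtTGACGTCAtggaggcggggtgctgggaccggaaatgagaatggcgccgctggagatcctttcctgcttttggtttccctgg

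None of the 46 member windows held the full PPAR element, a pair of AGGTCA copies with 1 base between them, which 0.0228% of all 35116 windows hold. None held the steroid receptor palindrome, AGAACA and TGTTCT with 3 bases between them (0.00285% of all windows), the estrogen-related receptor element TCAAGGTCA (0.353%), the ATF4 and C/EBP element TGATGNAAT (0.991%) or the NRF1 element, GCGCA followed directly by TGCGC (1.24%). The half-site AGGTCA, contained in several of these elements, was found in 2 genes, ACSL5 and ACSL6. That was 6.52% of member windows, against 13.8% of all windows. The cAMP response element was found in ACOX3 and ACAD9, in 6.52% of member windows, against 1.85% of all windows. The GC box was present in 24 of 28 genes and in 67.4% of member windows, against 45.0% of all windows. The TATA box TATAAA was present in 4 genes and in 8.70% of member windows, against 11.5% of all windows. The window printed for ACSL1 is the richest in G and C of the 4, at 82.3%, against 65.7% for ACAA2. HADHA and HADHB, the genes for the 2 subunits of the trifunctional protein, lie head to head, with start sites 307 bases apart and windows that overlap by 194 bases.

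**Figure D1:**
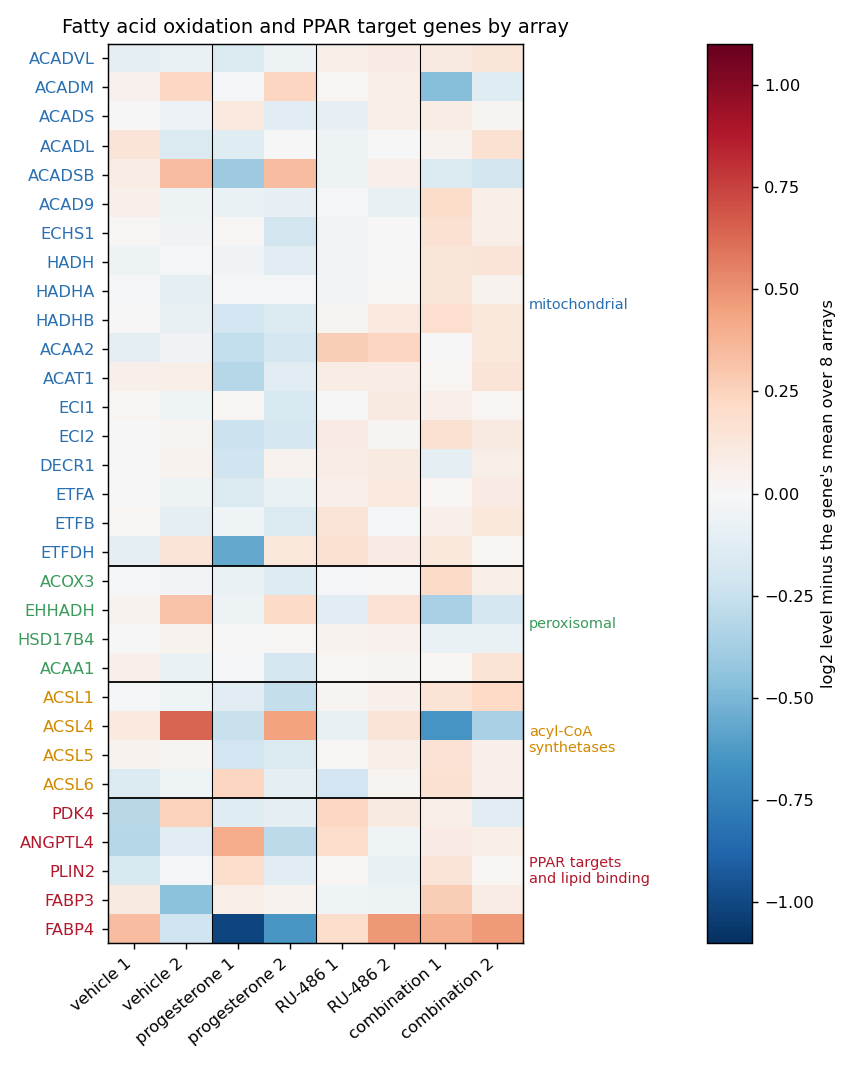
Log2 level of each of the 31 measured members on each of the 8 arrays, minus that gene's mean over all arrays. Blue to red runs from lower to higher, horizontal lines part the 4 roles and vertical lines the 4 groups of 2 arrays. FABP4 is darkest blue on the progesterone arrays, ACSL4 is bluest on the combination arrays, and most mitochondrial genes are faintly red on the RU-486 and combination arrays.

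RU-486 was examined first over all arrays, comparing the 4 that received it, alone or with progesterone, with the 4 that did not. Most members were slightly higher with the drug. Of the 31 measured genes 26 had a positive difference, against 62.5% of all genes, and the median difference was 0.12, where that of all genes was 0.03. No member passed among all genes (limma, Benjamini-Hochberg adjusted p under 0.05, which 0.0326% of all genes passed), and the smallest adjusted p of a member was 0.267. In bulk RNA, fewer cells of a kind and less RNA per cell cannot be told apart. At an unadjusted p under 0.05, 9 members were higher and 3 lower, where 6.53% and 4.49% of all genes were. The arrays of the 2 sides did not overlap for 7 members, all higher with the drug and equal to 22.6% of the members. Over all genes 4.51% lay apart in that direction and 1.09% in the other, where 0 members did. These 7 were ACADVL, HADHB, ACAA2, ECI2, ETFA, ACOX3 and ACSL1. The gap between the sides was widest for ACADVL, at 0.122 log2 units, and only 0.00113 for ECI2 and 0.00432 for ACOX3.

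**Figure D2:**
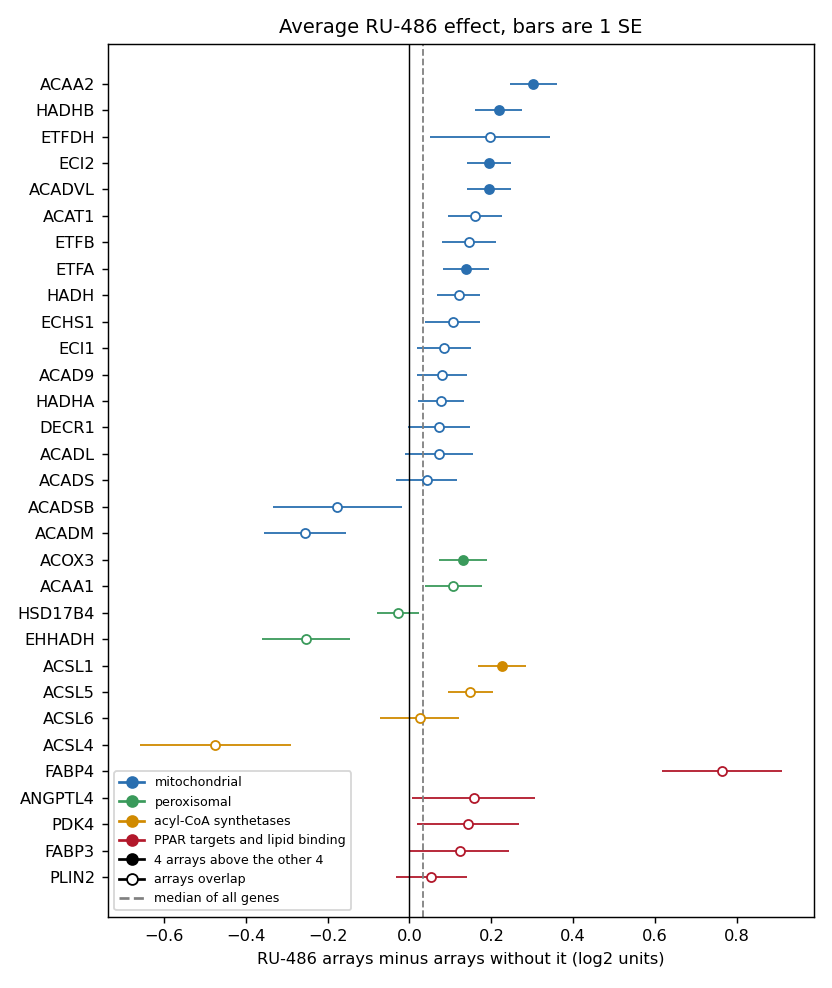
Difference in log2 units between the 4 arrays with RU-486 and the 4 without, for each measured member, grouped by role, with bars of 1 SE from limma. Filled points mark the 7 members whose 4 arrays with the drug all lay above the other 4, the dashed line is the median of all genes at 0.03, and FABP4 at 0.76 and ACSL4 at -0.47 lie at the ends.

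Among the mitochondrial enzymes 16 of 18 were higher with RU-486, with a median difference of 0.11 and 0 that passed. ACAA2, a thiolase that releases acetyl-CoA (probe set 8023261), had the smallest p of them. It measured 8.44 and 8.49 in vehicle, 8.27 and 8.34 in progesterone, 8.80 and 8.77 in RU-486, and 8.53 and 8.65 in the combination. All 4 arrays with RU-486 lay above the other 4, and RU-486 alone gave the highest pair. The difference was 0.30 ± 0.06 log2 units (SE), or 1.23-fold, with a limma adjusted p of 0.267.

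HADHB, the thiolase-bearing beta subunit of the trifunctional protein (probe set 8040639), measured 10.99 and 10.91 in vehicle, 10.78 and 10.84 in progesterone, 11.02 and 11.10 in RU-486, and 11.17 and 11.10 in the combination. The drug arrays lay above the rest, by 0.22 ± 0.06 on average (limma adjusted p = 0.385). HADHA, the alpha subunit gene that starts on the other side of the same promoter region, differed by 0.08 ± 0.06 (limma adjusted p = 0.615), and its sides overlapped. Whether the 2 subunit genes differ in response was not tested.

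ACADVL, which begins the cycle on very long chains (probe set 8004271), measured 10.93 and 10.95 in vehicle and 10.87 and 10.97 in progesterone. With RU-486 it measured 11.09 and 11.12, and in the combination 11.12 and 11.16. The difference was 0.19 ± 0.05 (limma adjusted p = 0.412), with no overlap. ECI2, an isomerase that handles unsaturated chains and is also found in peroxisomes (probe set 8123695), measured 9.65 and 9.69 in vehicle, 9.42 and 9.47 in progesterone, 9.75 and 9.69 in RU-486, and 9.82 and 9.75 in the combination. Its difference of 0.20 ± 0.05 (limma adjusted p = 0.411) came with no overlap. The progesterone arrays were the lowest, and RU-486 alone and vehicle differed by 0.05.

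ETFA, the alpha subunit of the electron transfer flavoprotein (probe set 7990566), measured 10.60 and 10.54 in vehicle, 10.44 and 10.52 in progesterone, 10.65 and 10.70 in RU-486, and 10.62 and 10.69 in the combination. It was higher by 0.14 ± 0.06 (limma adjusted p = 0.443). ETFB, its beta subunit, differed by 0.15 ± 0.07, and ETFDH, which hands the electrons on to ubiquinone, by 0.20 ± 0.15. Neither was free of overlap. ACAT1, a thiolase of ketone body and isoleucine metabolism (probe set 7943605), measured 10.66 and 10.67 in vehicle, 10.30 and 10.49 in progesterone, 10.69 and 10.69 in RU-486, and 10.63 and 10.75 in the combination. Only the progesterone arrays were low, and the average difference was 0.16 ± 0.07 (limma adjusted p = 0.443).

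The 2 mitochondrial genes below 0 were both acyl-CoA dehydrogenases. ACADM, the medium-chain enzyme (probe set 7902367), measured 12.01 and 12.19 in vehicle, 11.95 and 12.20 in progesterone, 11.99 and 12.03 in RU-486, and 11.49 and 11.82 in the combination. The combination arrays were the lowest, RU-486 alone overlapped vehicle, and the average RU-486 difference was -0.26 ± 0.10 (limma adjusted p = 0.434). ACADSB, the enzyme for short branched chains, differed by -0.18 ± 0.16 (limma adjusted p = 0.691), with progesterone replicate 1 as the lowest array, and its sign turned without progesterone replicate 2. Of the other acyl-CoA dehydrogenases ACADVL is given above, and the rest were nearer 0, with ACADS at 0.04, ACAD9 at 0.08 and ACADL, which was below the floor, at 0.07. The remaining members, ECHS1, HADH, ECI1 and DECR1, lay between 0.07 and 0.12.

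Of the 4 peroxisomal genes 2 were higher and 2 lower, with a median of 0.04 and 0 that passed. ACOX3, which oxidises branched chains, was higher by 0.13 ± 0.06 (limma adjusted p = 0.462). Its values were 8.73 and 8.72 in vehicle, 8.68 and 8.61 in progesterone, 8.74 and 8.76 in RU-486, and 8.96 and 8.81 in the combination, so RU-486 alone exceeded vehicle by 0.02, no more than its own replicates differed. EHHADH, the bifunctional enzyme and a classical PPAR-alpha target (probe set 8092523), measured 7.09 and 7.37 in vehicle, 7.0 and 7.26 in progesterone, 6.93 and 7.21 in RU-486, and 6.69 and 6.87 in the combination. Both combination arrays were the lowest, and the average RU-486 difference was -0.25 ± 0.11 (limma adjusted p = 0.452). ACAA1, the peroxisomal thiolase, differed by 0.11 ± 0.07, and HSD17B4, the other bifunctional enzyme, by -0.03 ± 0.05. HSD17B4 had the narrowest range of any member over the 8 arrays, 0.13 log2 units.

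The acyl-CoA synthetases differed in direction, and none passed. ACSL1, the main isoform of oxidative and fat-storing tissues (probe set 8103951), measured 9.79 and 9.76 in vehicle, 9.68 and 9.54 in progesterone, 9.83 and 9.86 in RU-486, and 9.95 and 10.02 in the combination. All drug arrays lay above the rest, by 0.23 ± 0.06 (limma adjusted p = 0.384), and the combination was the highest pair. ACSL5 (probe set 7930498), an isoform of mitochondria and endoplasmic reticulum, measured 8.70 and 8.69 in vehicle, 8.45 and 8.50 in progesterone, 8.67 and 8.73 in RU-486, and 8.82 and 8.72 in the combination, a difference of 0.15 ± 0.06 (limma adjusted p = 0.434) with overlap.

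ACSL4, which prefers arachidonic acid and other polyunsaturated chains (probe set 8174474), ran the other way. It measured 8.62 and 9.16 in vehicle, 8.27 and 8.96 in progesterone, 8.43 and 8.66 in RU-486, and 7.87 and 8.16 in the combination. The combination arrays were the lowest. Replicate 1 was below replicate 2 in all 4 groups, as it also was for ACADVL, ACADM, ACAT1, DECR1 and EHHADH. The average RU-486 difference of ACSL4 was -0.47 ± 0.18 (limma adjusted p = 0.434), with overlap. ACSL6, a brain isoform with a dim probe set, differed by 0.02 ± 0.10.

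All 5 PPAR targets and lipid-binding genes had a positive RU-486 difference, with a median of 0.14 and 0 that passed. The sign turned for ANGPTL4 and PLIN2 without progesterone replicate 2, and for FABP3 without vehicle replicate 2. FABP4, a carrier of fatty acids that PPAR-gamma induces in adipocytes and macrophages (probe set 8151532), varied most of all members, over 1.49 log2 units. It measured 7.57 and 7.01 in vehicle, 6.21 and 6.59 in progesterone, 7.41 and 7.70 in RU-486, and 7.62 and 7.69 in the combination. The progesterone arrays were the lowest, and vehicle replicate 1 overlapped the drug arrays. The average difference was 0.76 ± 0.15, or 1.70-fold (limma adjusted p = 0.267).

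ANGPTL4, a secreted inhibitor of lipoprotein lipase (probe set 8025402), measured 6.42 and 6.61 in vehicle, 7.14 and 6.45 in progesterone, 6.93 and 6.69 in RU-486, and 6.83 and 6.81 in the combination. The progesterone replicates held both the highest array and an array within the vehicle range, and the average RU-486 difference was 0.16 ± 0.15. PDK4, the kinase that restrains pyruvate dehydrogenase when fat is burned, was dim, at 5.52 and 6.08 in vehicle, 5.69 and 5.73 in progesterone, 6.06 and 5.92 in RU-486, and 5.90 and 5.71 in the combination. Its vehicle arrays were the lowest and the highest of the 8.

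PLIN2, the lipid droplet coat protein, measured 5.02 and 5.17 in vehicle, 5.38 and 5.07 in progesterone, 5.20 and 5.10 in RU-486, and 5.33 and 5.21 in the combination. FABP3, the heart-type carrier, measured 5.09 and 4.54 in vehicle, 5.06 and 5.03 in progesterone, 4.94 and 4.94 in RU-486, and 5.26 and 5.07 in the combination. Both lay in the olfactory range throughout, where differences are compressed. The average RU-486 difference was 0.14 ± 0.12 for PDK4, 0.05 ± 0.09 for PLIN2 and 0.12 ± 0.12 for FABP3.

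Without progesterone replicate 1, 2 members passed for the average RU-486 effect and both were higher. ACSL1 stood at 0.26 ± 0.05 (limma adjusted p = 0.0461) and ACAA2 at 0.28 ± 0.06 (limma adjusted p = 0.0462). With a single progesterone array left, that group is assumed to vary like the other groups. In that fit 1.42% of all genes passed as higher and 4.0% as lower. With every other array left out in turn, 0 members passed. Over all alternatives the adjusted p ran from 0.0462 to 0.933 for ACAA2 and from 0.0461 to 0.933 for ACSL1.

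**Figure D3:**
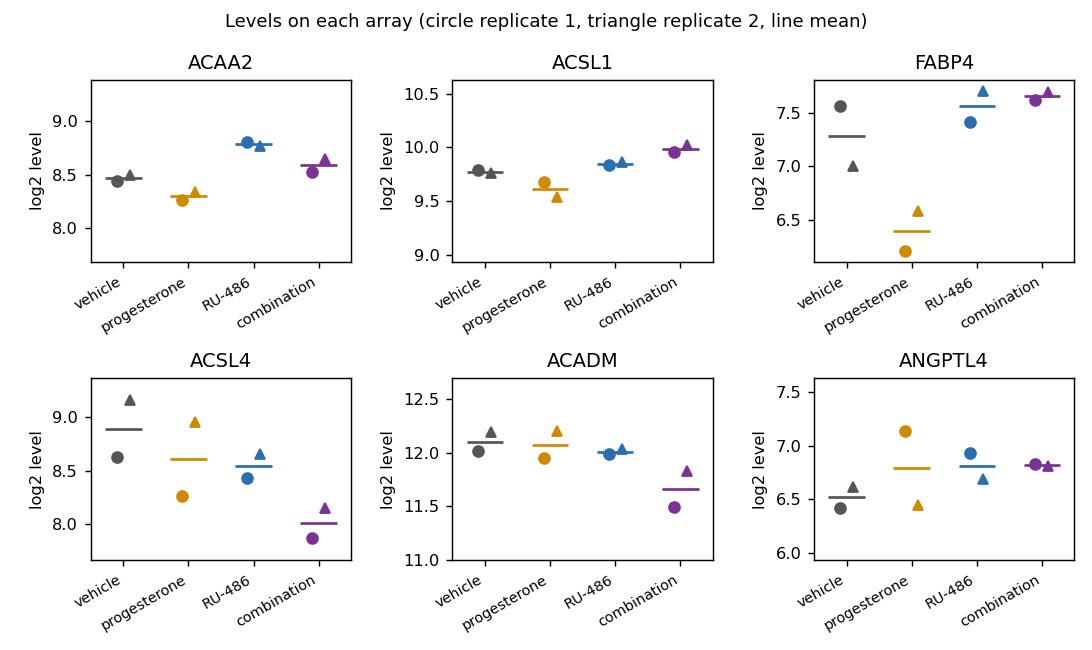
Log2 level of 6 members on every array, with a circle for replicate 1, a triangle for replicate 2 and a line at the group mean. Each panel spans the same number of log2 units on its own axis, which does not start at 0. ACAA2 and ACSL1 are higher on the 4 arrays with RU-486, FABP4 is lowest after progesterone at 6.21 and 6.59, and ACSL4 and ACADM are lowest in the combination.

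Progesterone alone against vehicle asks what the hormone does by itself. Most members were slightly lower with it. 25 of the 31 were below vehicle, with a median difference of -0.08, where the median of all genes was 0.004 and 51.2% of all genes lay above 0. In this comparison limma called 0 members and 0 genes (0% of all genes). At an unadjusted p under 0.05, 0 members were higher and 4 were lower, where 3.68% and 2.45% of all genes were. The 4 were FABP4 at -0.89 ± 0.21 (0.54-fold), ACAT1 at -0.27 ± 0.09, ECI2 at -0.23 ± 0.08 and ACSL5 at -0.22 ± 0.08 (limma adjusted p = 0.741 each). Markers of other cells were mostly higher in the same comparison. Above vehicle were 9 of 9 adipocyte genes (median 0.20), 10 of 10 macrophage and microglia genes (median 0.17) and 8 of 9 hepatocyte genes (median 0.19). So were 7 of 8 neuron genes (median 0.12), 6 of 9 muscle genes (median 0.12) and 5 of 9 endothelial genes (median 0.09). Of the 13 astrocyte and glioma markers 8 were above vehicle, with a median of 0.03. In limma 0 of these markers passed. At an unadjusted p under 0.05, 2 adipocyte genes and 1 gene of each other list were higher. Lower at that level were 1 muscle and 1 endothelial gene. The progesterone replicates differed by over 0.5 log2 units in 11.8% of all genes. Both progesterone arrays lay above both vehicle arrays for 6 adipocyte, 3 macrophage and microglia and 3 hepatocyte genes. So they did for 4 neuron, 2 muscle, 3 endothelial and 4 astrocyte and glioma genes. They lay below for 1 hepatocyte, 1 muscle, 3 endothelial and 2 astrocyte and glioma genes. Over all genes the shares were 16.3% above and 15.8% below. The part of these markers in the members' differences was not tested. Both progesterone arrays lay below both vehicle arrays for 10 members, against 15.8% of all genes, and above them for 0, against 16.3%. The 10 were FABP4, ACAT1, ECI2, ACSL5, ACSL1, ACAA2, HADHB, ETFA, ACAD9 and ACOX3. ANGPTL4, at 0.28 ± 0.21, was the highest, and without progesterone replicate 1 it was at -0.07.

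Without progesterone replicate 2, where the remaining progesterone array is assumed to vary like the other groups, 4 members passed against vehicle. ANGPTL4 was higher, and FABP4, ACADSB and ETFDH were lower, in a fit in which 4.96% of all genes passed as higher and 1.70% as lower. FABP4 was then at -1.07 ± 0.23 (limma adjusted p = 0.0483). ACADSB, ETFDH and ANGPTL4 are genes for which the 2 progesterone arrays differed by over 0.5 log2 units.

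RU-486 alone against vehicle showed small differences. Of 31 members 24 were higher, against 55.3% of all genes, the median was 0.05 against 0.01 for all genes, and limma called 0 members and 0 genes (0% of all genes). At an unadjusted p under 0.05 there was 1 higher member, ACAA2, at 0.32 ± 0.08 or 1.25-fold (limma adjusted p = 1.00), and 0 lower, where 2.15% and 0.950% of all genes were. With arrays centred on their medians 17 of 31 were higher and the median was 0.02, against -0.02 for all genes. Without vehicle replicate 2 the median was 0.03, against 0.005 for all genes. For 10 members the drug arrays lay above both vehicle arrays, against 24.0% of all genes, and for 1, ACADSB, below, against 15.7%.

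With the hormone on both sides, the combination was compared with progesterone alone. The median difference was larger here, though no member passed for the interaction given below. Of 31 members 26 were higher and the median was 0.17, against 0.03 for all genes, of which 56.7% were higher. Limma called 0 members and 0 genes (0% of all genes). At an unadjusted p under 0.05, 11 members were higher and 1 lower, where 10.1% and 4.50% of all genes were. The arrays lay apart for 19 members that were higher and 4 that were lower, against 28.1% and 12.6% of all genes. FABP4 differed by 1.26 ± 0.21, or 2.39-fold (limma adjusted p = 0.209), ACSL1 by 0.38 ± 0.08 (limma adjusted p = 0.255), ECI2 by 0.34 ± 0.08 (limma adjusted p = 0.265) and HADHB by 0.33 ± 0.08 (limma adjusted p = 0.266). ACADM was lower, by -0.42 ± 0.14 (limma adjusted p = 0.289), and ACSL4 by -0.60 ± 0.26 (limma adjusted p = 0.348). Without progesterone replicate 1, FABP4 at 1.07 ± 0.23 (limma adjusted p = 0.0475) and ACSL1 passed, both higher, where 1.67% of all genes passed as higher and 4.25% as lower.

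The 2 comparisons that add RU-486, with and without progesterone, use different arrays. In both, 23 of 31 members were above 0 and 4 below, and 4 had opposite signs. Of all genes 34.0% were above 0 in both and 22.1% below. The 4 members below 0 in both were ACADM, ACADSB, EHHADH and ACSL4. Taken within each replicate number, 11 members were higher with RU-486 in all 4 pairs of arrays, against 12.6% of all genes: ACADVL, HADH, HADHB, ACAA2, ACAT1, ECI2, DECR1, ETFA, ETFB, ACOX3 and ACSL1. ACADM, EHHADH and ACSL4 were lower in all 4 pairs, against 10.9% of all genes. For ACAA2 the 4 paired differences were 0.36, 0.28, 0.26 and 0.31, and for FABP4 they were -0.15, 0.70, 1.41 and 1.11.

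**Figure D4:**
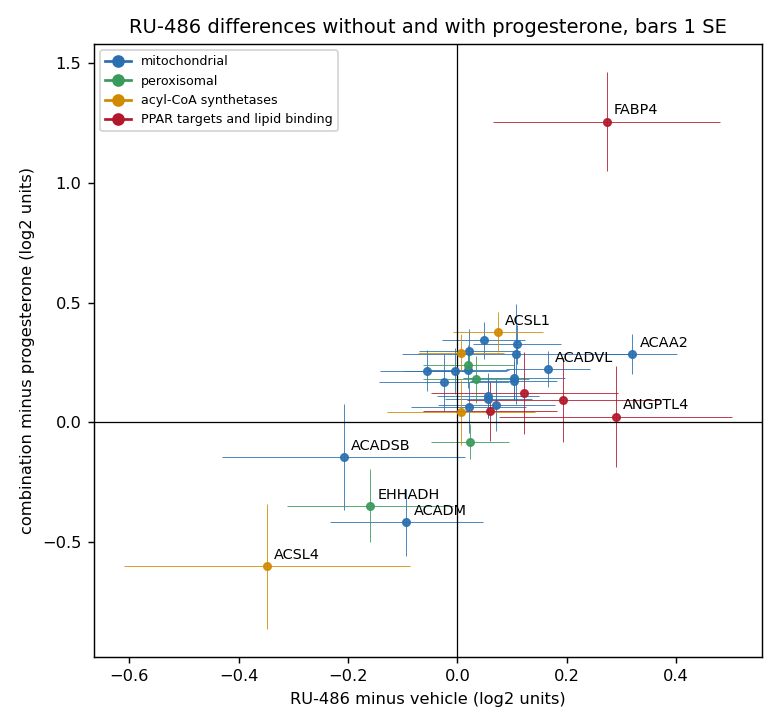
Difference in log2 units between RU-486 and vehicle (horizontal) and between the combination and progesterone (vertical) for the 31 measured members, coloured by role, with bars of 1 SE. Most points lie above and to the right of 0, ACSL4, ACADM, ACADSB and EHHADH lie below and to the left, and FABP4 stands at 0.27 and 1.26.

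The interaction asks whether the RU-486 difference changes when progesterone is present. Limma called 0 members and 0 genes (0% of all genes), and at an unadjusted p under 0.05, 4 members were higher and 0 lower, where 3.68% and 1.60% of all genes were. FABP4 was at 0.98 ± 0.29, ACSL1 at 0.30 ± 0.12, ECI2 at 0.29 ± 0.11 and ACSL5 at 0.28 ± 0.11 (limma adjusted p = 0.828 each). For FABP4 the 95% interval ran from 0.29 to 1.68. A difference between the 2 settings was thus not established for any member.

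In the combination against vehicle 25 of 31 members were higher, with a median of 0.12, against 0.07 and 67.5% for all genes. Limma called 0 members and 0 genes (0% of all genes). At an unadjusted p under 0.05, 2 members were higher, ACADVL at 0.20 ± 0.08 and ACSL1 at 0.21 ± 0.08, and 3 were lower, where 6.92% and 6.29% of all genes were. The lower 3 were ACSL4 at -0.88 ± 0.26 (0.54-fold), ACADM at -0.44 ± 0.14 and EHHADH at -0.44 ± 0.15 (limma adjusted p = 0.374 for each of the 5). The arrays lay apart for 18 members that were higher and 5 that were lower, against 42.7% and 18.8% of all genes. FABP4, at 0.37 ± 0.21 (limma adjusted p = 0.434), was the highest member here. On the gene direction that holds most of the variance within groups, the combination arrays scored 16.7 and 8.11 and the vehicle arrays -3.71 and -18.7. With that score as a covariate 24 members were higher, the median was 0.09 against 0.02 for all genes, and ACSL4 was at -0.46 ± 0.13, ACADM at -0.28 ± 0.12 and EHHADH at -0.26 ± 0.12. The direction was taken from these same arrays and holds 66.4% of their within-group variance. The SE of that fit are thus too small.

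Between the combination and RU-486 alone, 20 members (64.5%) were higher, against 61.1% of all genes. The median was 0.06, against 0.04 for all genes. Without combination replicate 2 it was 0.02, against 0.05 for all genes. At an unadjusted p under 0.05, 0 members were higher and 2 lower, ACADM at -0.35 ± 0.14 and ACAA2 at -0.20 ± 0.08, where 3.18% and 1.56% of all genes were. The arrays lay apart for 13 higher and 8 lower members, against 33.3% and 17.1% of all genes. For RU-486 against progesterone, 24 members were above 0, against 48.7% of all genes, with a median of 0.11 against -0.004. Of the 24 members 9 were higher at an unadjusted p under 0.05, and 0 members were lower, where 3.21% and 1.41% of all genes were. The arrays lay apart for 16 higher members and 1 lower, FABP3, against 17.0% and 10.3% of all genes. FABP4 differed by 1.16 ± 0.21 (limma adjusted p = 0.532) and ACAA2 by 0.48 ± 0.08 (limma adjusted p = 0.493). Over all arrays with and without progesterone, 19 members were lower, while 61.2% of all genes were higher. The median was -0.03, against 0.03 for all genes. ACAA2, at -0.18 ± 0.06, and FABP4, at -0.40 ± 0.15, were the 2 lower members at an unadjusted p under 0.05, with 0 higher, where 1.83% and 3.20% of all genes were. The arrays of the 2 sides lay apart for 0 members in either direction, against 2.02% of all genes higher and 0.836% lower. Limma called 0 members and 0 genes in each of these 3 comparisons (0% of all genes).

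The step before the mitochondrial enzymes and the receptors above them were read for the average RU-486 effect. In the carnitine shuttle 2 of 7 measured genes passed and rose, CPT1A, the entry enzyme, by 1.04 ± 0.09 (limma adjusted p = 0.0236) and the carrier SLC25A20 by 0.66 ± 0.06 (limma adjusted p = 0.0236), where 0.0326% of all genes passed. Both calls were lost in 7 of 17 alternatives, namely with all probe sets and when either array of the vehicle, RU-486 or combination pair was left out. Over the 17 the adjusted p reached 0.310, while the difference stayed between 0.95 and 1.13 for CPT1A and between 0.64 and 0.68 for SLC25A20. The largest member difference with no overlap, 0.30 for ACAA2, was smaller than either. Of 13 PPAR receptors, partners and coregulators 0 passed, with a median of 0.01, and 1 was higher and 2 were lower at an unadjusted p under 0.05. The lower ones were the coregulators NRIP1 at -0.65 ± 0.26 (limma adjusted p = 0.439) and NCOA2 at -0.35 ± 0.13 (limma adjusted p = 0.434). Of 28 other PPAR targets, a list that holds CPT1A and SLC25A20 again and the member ACADVL, those 2 passed as higher and 0 as lower. In that list 6 genes were higher and 2 lower at an unadjusted p under 0.05, and the median was 0.09.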

How the data were processed

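Per the submitters' processing notes, the authors used RMA, oligo and limma, without versions or settings, and deposited log2 values for 33297 probe sets on 8 arrays. RMA equalises arrays and compresses differences of dim genes. Array medians ran from 6.93 to 7.02, and the number of arrays limits precision.

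The platform annotation gives 19460 probe sets a single symbol, 1754 more than 1, and 12083 no symbol. The highest-mean probe set per gene gave 18417 genes, and every measured member had 1. No column was left unmapped. Differences and SE come from limma 3.58.1 (lmFit, eBayes; R 4.3.3), fitted on the means of 4 groups, with 4 residual degrees of freedom, and p-values were adjusted by Benjamini-Hochberg over all genes in each of 9 contrasts. The fit was tested on simulated data with independent noise on each array. That noise lacks the correlation between replicate differences given below. Members and lists were chosen with earlier results of these data known. Array values are given for members with an unadjusted p under 0.05 in the average RU-486 effect or against vehicle, and for the 5 PPAR target and lipid-binding genes, and up to 2 genes of other lists are named. ACOX3 and further genes were named after their values were seen, as were the promoters and motifs.

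Replicate differences (replicate 1 minus 2) correlated between every pair of groups over all genes, at 0.20 to 0.51, so same-numbered arrays were treated as pairs in an alternative fit. Alternatives covered scaling, probe set choice, filters, weights, array sets and a within-group covariate.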

Additional observations from a re-analysis of the deposited data

How the results depend on the processing

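The number of members passing was 0 in each of 9 contrasts, and it stayed 0 with the replicate number as a block, array centring, quantile normalization, mean probe sets, all probe sets, bright genes only, trend and robust priors, array weights, and the within-group axis as covariate. A fit of only the groups compared, run for the 6 pairwise contrasts, also gave 0. Leaving out each array in turn gave 0 to 2 members for the average RU-486 effect, 0 to 4 for progesterone against vehicle, 0 to 2 for the combination against progesterone, and 0 in the other 6 contrasts. The value of 4 came without progesterone replicate 2, and both values of 2 without progesterone replicate 1. In these fits that pair gives no residual, and the remaining array is assumed to vary like the other groups. The blocked fit changed no call of a member, though it moved adjusted p-values. The smallest limma adjusted p of a member went from 0.267 to 0.0884 for the average RU-486 effect. For the combination against vehicle it went from 0.374 to 0.0681. The SE and p-values of the Results come from the fit without the block. The 25 member differences followed one by one kept their sign under every alternative run for them. They were those with an unadjusted p under 0.05 in the average RU-486 effect or against vehicle, and 3 more of FABP4. Since the same arrays chose them, the kept signs are no separate support. Among the other members, ACADS, ACADL, ACADSB, ACSL6, ANGPTL4, PLIN2 and FABP3 turned sign for the average RU-486 effect under at least 1 alternative. For the average RU-486 effect, FABP4 ran from 0.62 to 0.90, ACAA2 from 0.27 to 0.33 and ACSL4 from -0.65 to -0.25. For members near or under the olfactory range, such as PDK4, PLIN2, FABP3 and ACADL, small changes are hard to tell from noise. The vehicle replicates of PDK4 and FABP3 differed by over 0.5 log2 units.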

Other observations

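Genes around the pathway, not described above, gave the following values for the average RU-486 effect, none of which passed among all genes in limma. For comparison, 62.5% of all genes were higher, and the median of all genes was 0.03. Of 17 measured genes of peroxisome biogenesis and transport 15 were higher, with a median of 0.11. Catalase (CAT), which breaks down hydrogen peroxide from peroxisomal oxidation, was higher by 0.22 ± 0.05 (limma adjusted p = 0.340), and ABCD3, a peroxisomal fatty acid importer, was lower by -0.38 ± 0.09 (limma adjusted p = 0.376). Among 16 genes of fatty acid entry and activation 8 were higher and the median was 0.007. SLC27A3, of the fatty acid transport protein family, differed by 0.34 ± 0.06 (limma adjusted p = 0.253). Of 17 lipid droplet and lipolysis genes 11 were higher (64.7%, near the share of all genes), with a median of 0.08. FITM2, which helps droplets form, differed by 0.24 ± 0.06 (limma adjusted p = 0.384). In the ketone body and propionate list 5 of 9 were higher, with a median of 0.04.

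The receptor genes given here were chosen after their values were seen. PPARA lay at a log2 level of 8.75 and PPARD at 9.36, both above the olfactory 95th percentile of 6.22, while PPARG lay at 4.59, below the olfactory median of 4.64. PPARGC1A, a coactivator of oxidative genes, was at 9.89.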
